A study of Ascaris suum with 12 samples.

Results

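Cap-only genes of the roundworm Ascaris suum are here protein-coding gene models flagged as caught by their cap and never flagged with a spliced leader. The name follows these flags, and the 5′ ends themselves were not examined. They were taken from the deposited expression table by 2 flags per transcript. A gene was a member when at least 1 of its transcripts carried the Telo flag (listed as not trans-spliced) and none carried the SL flag (listed as trans-spliced). Genes listed as eliminated and genes on scaffolds whose name ends in X were left out. This gave 948 genes of 18025 in the table, or 6.83% of the 13874 retained genes off the X scaffolds. The reference was the 5021 SL-only genes of the same set, and a further 1094 genes carried both flags and 6811 neither. Each gene is described by the 1 transcript that the table marks as best expressed. Expression values were not part of this rule, but the flags were found more often on abundant genes, as given below.

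The worms were adult Ascaris of the North American wildtype strain, collected fresh from pig intestines and dissected into germline regions that were frozen. Libraries of ribosome-depleted total RNA came from 5 male regions, in order the mitotic region, the region of spermatogenesis, the post-meiotic region, the seminal vesicle and the spermatids. The 5 female regions were the mitotic region, early and late pachytene, diplotene and the oocyte. No treatment is named, and how many worms went into a library is not given in the labels. The flags match 2 further libraries of a mixed sample, made with a spliced leader primer and with TeloPrime, whose makeup is not given and whose reads are not analysed here.

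In nematodes many messages receive a short spliced leader RNA at their 5′ end by trans-splicing, which replaces the original 5′ end and brings a trimethylated cap. Other messages keep the 5′ end and the cap they were transcribed with. TeloPrime is a commercial method that makes full-length cDNA from capped RNA. Nematode sperm are amoeboid and crawl by assembling filaments of major sperm protein (MSP) rather than actin. In Ascaris the MSP fiber proteins, MFP1, MFP2 and MFP3, are bound to these filaments, and a kinase and a phosphatase act on them during movement.

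Some features of the data bear on all values below. Each region was 1 library with no replicate, so differences were not tested, and the read depth is unknown. Values are RPKM (reads scaled by transcript length and by library size), and their column totals ranged from 1090760 to 1610771. Libraries were compared by the median ratio of a gene's level to its geometric mean over the 10 libraries. Over 4056 genes at 1 RPKM or more in every library, this ratio was 2.10 log2 units lower in spermatogenesis than in the male mitotic region. Counts after rescaling by these median ratios are thus given beside the raw ones where rescaling moved them by over 1.5 times. Flags were found more often on abundant genes: 79.5% of genes with a maximum under 1 RPKM had neither flag, against 22.6% at 100 RPKM or more. A gene without an SL flag may thus be one whose leader was not caught, and this was not tested. The sources used here do not give the strand of the reads, and 476 members (50.2%) overlapped another gene, against 42.7% of SL-only genes. Since the tissues are bulk samples, fewer cells of a type and less RNA per cell cannot be told apart.

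Germline labels were read against word lists from the annotations. The 43 MSP genes of the table summed to 43230 RPKM in spermatogenesis and to 166.3 RPKM or less in each female library. The 51 genes of the eggshell and oocyte list summed to 58230, 116900 and 102800 RPKM in the female mitotic, early pachytene and late pachytene libraries and to 2256 or less in each male library. Its sums in diplotene and the oocyte are not given here, so the list is no check of those labels. Ovarian abundant message protein (AgB01_g322_t03), a gene on it, went from 30258.6 RPKM in early pachytene to 491.8 in diplotene and 283.2 in the oocyte. The 210 collagen and cuticle genes summed to 20830 RPKM in the seminal vesicle and 17650 in spermatids, against 447.4 to 1698 elsewhere. The 149 muscle and actin genes (3257 to 8344 RPKM), the 29 intestine and yolk genes (33.0 to 273.1) and the 633 receptor and channel genes (2095 to 3813) were found in every library. What other cell types add to the levels of members was not tested.

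Cap-only genes held an unequal share of the summed RPKM along the germline. Their marked transcripts made up 22.9% of the RPKM summed over all marked transcripts in the male mitotic region, 49.1% in spermatogenesis and 34.5% in the region after meiosis. The share was 5.20% in the seminal vesicle and 10.6% in spermatids. In the female it was 16.1% in the mitotic region, 24.7% in early pachytene, 23.6% in late pachytene, 5.39% in diplotene and 5.23% in the oocyte. The 5021 SL-only genes held 8.40% in spermatogenesis and 12.7% to 32.2% in the other libraries. The cap-only share was highest in the library where the SL-only share was lowest. Both are parts of 1 total, so a high share of one leaves less for the other. Such sums lean on abundant genes. In early pachytene AgB01_g322_t03 alone was at 30258.6 RPKM, while the median member was at 0.40. With each transcript weighted by its length the cap-only share was 14.9% in the male mitotic region, 35.3% in spermatogenesis and 22.4% after meiosis, and 5.74% to 21.0% in the other 7 libraries, so spermatogenesis stayed the highest.

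The median over members was also highest in spermatogenesis. The median member stood at 10.3 RPKM in the male mitotic region, 12.1 in spermatogenesis and 4.90 after meiosis, then at 0.50 in the seminal vesicle and 2.05 in spermatids. In the 5 female libraries the median lay between 0.30 and 0.70 RPKM. SL-only genes had a median of 1.30 RPKM in spermatogenesis and of 3.30 to 5.40 in the female libraries. In the male mitotic region genes with both flags had a median of 10.6 RPKM, close to that of members. In spermatogenesis genes with both flags were at 4.25 and genes with neither at 0.60 RPKM.

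**Figure D1:**
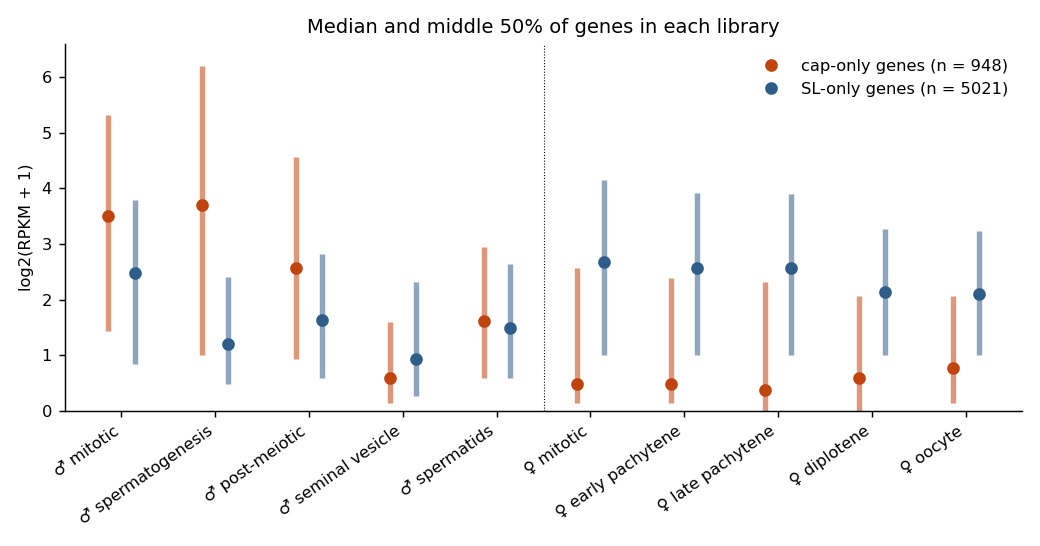
Levels of 948 cap-only and 5021 SL-only genes in the 10 libraries, on the log2(RPKM + 1) scale. Points are medians over genes and bars the middle 50% of genes, not an error over replicates. Cap-only genes sit above SL-only genes in the first 3 male libraries and below them in the 5 female libraries.

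By the library of their highest value, 379 of the 661 members that reached 10 RPKM (57.3%) were highest in spermatogenesis. The same held for 248 of 2763 SL-only genes (8.98%), 187 of 805 genes with both flags (23.2%) and 529 of 2019 with neither (26.2%). A further 73 members were highest in the male mitotic region, 30 in the post-meiotic region, 28 in the seminal vesicle and 8 in spermatids. In the female 57 were highest in the mitotic region, 40 in early pachytene, 9 in late pachytene, 7 in diplotene and 30 in the oocyte. After rescaling of the libraries by median ratios the shares highest in spermatogenesis were 76.6% for members and 28.7% for SL-only genes.

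Among abundant genes the contrast was wider. Of the 322 retained genes off the X scaffolds that reached 100 RPKM and were highest in spermatogenesis, 165 were cap-only, 58 had both flags, 67 had neither and 32 were SL-only. Cap-only genes were thus 64.7% of the 255 flagged genes there, against 15.7% of the 562 flagged genes of that level that were highest in the other 9 regions. At 10 to 100 RPKM the shares were 38.3% of 559 and 6.8% of 2853, and at 1 to 10 RPKM 24.1% of 249 and 7.72% of 2098. The excess in spermatogenesis was present in all 3 ranges of level.

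**Figure D2:**
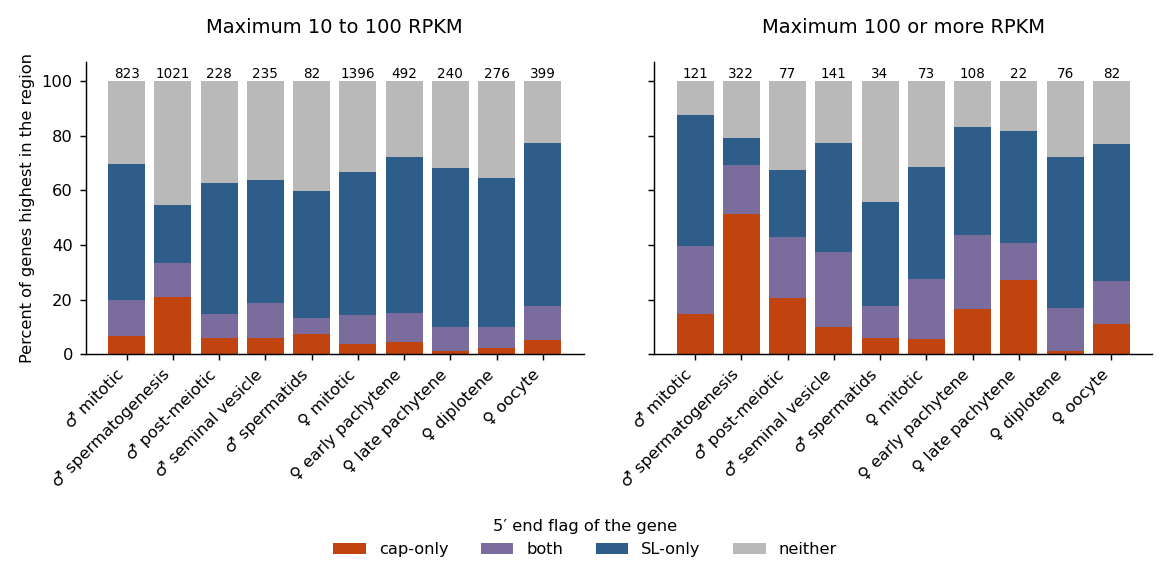
Genes grouped by the library of their highest value, for maxima of 10 to 100 RPKM (left) and of 100 RPKM or more (right); bars give the percent of genes with each kind of 5′ end flag and numbers above them count genes. Cap-only genes make up 51.2% of the 322 genes of the upper range that are highest in spermatogenesis.

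Some gene models lie on top of each other, so the count was repeated with overlapping members merged on either strand. The 948 members formed 861 loci, and 346 of the 608 loci that reached 10 RPKM (56.9%) were highest in spermatogenesis, against 9.19% of SL-only loci. For 118 members (12.4%) the marked transcript overlapped a gene with an SL flag. Of the 77 of these at 10 RPKM or more, 40 (51.9%) were highest in spermatogenesis, against 339 of 584 (58.1%) without such an overlap. Both counts were added after the data were seen.

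The 379 members highest in spermatogenesis shared a male profile. Their median was 29.3 RPKM in the male mitotic region, 77.6 in spermatogenesis, 16.3 in the post-meiotic region, 0.50 in the seminal vesicle and 3.20 in spermatids, and 0.10 to 0.20 in each female library. Relative to its own level in spermatogenesis the median member held 34.0% in the mitotic region, 17.7% after meiosis, 0.56% in the seminal vesicle and 4.08% in spermatids. All 5 female libraries were under 1 RPKM for 251 of them (66.2%), against 61 of 248 SL-only genes highest in spermatogenesis (24.6%). The same held for 306 of 529 genes with neither flag (57.8%) and 67 of 187 with both flags (35.8%). Low female levels were thus not particular to members, and genes with neither flag came close to them. Conversely 18 members (4.75%) and 79 SL-only genes (31.9%) reached 10 RPKM in some female library. So did 63 genes with neither flag (11.9%) and 51 with both (27.3%).

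Specificity was summarised with tau, computed on log2(RPKM + 1), which is 0 for a gene equal in all 10 libraries and 1 for a gene found in a single library. The median tau of members that reached 10 RPKM was 0.70, with the middle 50% from 0.49 to 0.79, and that of SL-only genes was 0.40. Within the members it was 0.76 for those highest in spermatogenesis and 0.48 for the 282 highest elsewhere. SL-only genes highest in spermatogenesis had a median of 0.58.

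Steps along the male germline were compared with a fixed rule. A gene was called higher or lower when its value of RPKM + 1 differed at least 4-fold and the higher value was at least 10 RPKM. From the mitotic region to spermatogenesis 125 members were called higher (13.2%, with 2.11% of all 18025 genes called) and 48 lower (5.06%, with 9.81% of all genes called). SL-only genes were called higher in 45 and lower in 673 cases. With libraries rescaled by median ratios the calls were 454 higher and 0 lower for members (14% and 0.294% of all genes) and 424 and 11 for SL-only genes. The members thus lay on the higher side of the whole table under both scalings, while the absolute split rests on the scaling.

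From spermatogenesis to the post-meiotic region 40 members were called higher (5.67% of all genes called) and 253 lower (26.7% of members, 7.8% of all genes called). In SL-only genes the calls were 340 higher and 194 lower. After rescaling 18 members were called higher (3.26% of all genes) and 407 lower (16% of all genes). From the post-meiotic region to the seminal vesicle 15 members were called higher (1.7% of all genes called) and 260 lower (27.4% of members, 5.27% of all genes called). Both steps were called lower for 92 members, and all genes were not counted in this way. After rescaling 23 were higher (2.54% of all genes) and 276 lower (5.39% of all genes) at the latter step. From the seminal vesicle to spermatids 109 members were called higher (11.5% of members, 2.3% of all genes called) and 10 lower (0.444% of all genes called). From the male mitotic region to spermatids 15 were called higher (2.42% of all genes called) and 311 lower (32.8% of members, 11.5% of all genes called). After rescaling 24 were higher (3.76% of all genes) and 148 lower (15.6% of members, 3.49% of all genes).

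Sperm proteins were the clearest group by name. Of 32 MSP genes in the retained set off the X scaffolds 18 were cap-only, 4 had both flags, 9 had neither and 1 was SL-only. All 18 members were at 27.3 RPKM or more in spermatogenesis, with a median of 203.6 RPKM, and 16 were under 1 RPKM in the female mitotic region. From the mitotic region to spermatogenesis 8 of the 18 were called higher, or 16 after rescaling, and 0 lower. Of all genes 2.11% were called higher at this step, or 14% after rescaling. The single SL-only gene, MSP-domain protein 5 (AgB03_g483_t02), reached 8.3 RPKM in spermatogenesis, while the cap-only gene of that name (AgB18_g025_t03) reached 308.1. These 2 were chosen after their values were seen.

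Major sperm protein isoform alpha (AgB02_g504_t01, scaffold AgB02, 8488070 to 8488662, plus strand, 2 exons) is a filament subunit. It was at 3609.7 RPKM in the male mitotic region, 13039.6 in spermatogenesis, 9492.4 in the post-meiotic region, 131.6 in the seminal vesicle and 1142.6 in spermatids, and at 2.5 to 16.4 in the female libraries. Every male library was above every female library. The difference from mitotic region to spermatogenesis was 1.85 on the log2 scale and missed the 4-fold rule, while that from post-meiotic region to seminal vesicle was -6.16. MSP genes are a family of near-identical copies, so reads may be split between copies and the level of 1 copy is uncertain.

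Proteins of sperm movement showed the same flags. Of 36 genes on the sperm motility and sperm specific list 24 were cap-only, 3 had both flags, 5 neither and 4 were SL-only. The 24 members were at 26.7 to 6705.8 RPKM in spermatogenesis, and 10 were called higher there than in the mitotic region, or 22 after rescaling, and 0 lower. The share of all genes called higher was 2.11%, or 14% after rescaling. The 4 SL-only genes were at 0.9 to 28.6 RPKM. Among genes of this list that reached 100 RPKM 19 of 21 were cap-only.

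The MSP fiber proteins differed in their post-meiotic levels. MFP2 (AgR008_g015_t01) was at 548.8 RPKM in the mitotic region, 2940.7 in spermatogenesis, 1796.9 in the post-meiotic region, 20.4 in the seminal vesicle and 161.8 in spermatids, and at 0.4 to 3.1 in the female. MFP3 (AgR012_g244_t03) went from 90.4 to 747.3 and 563.4 RPKM over the first 3 male regions, and neither was called lower at the post-meiotic step. MFP1-beta (AgR003_g211_t01) was at 913.6, 1944.8 and 235.4 RPKM, and MFP2b (AgR017_g212_t01) at 941.4, 1622.5 and 160.1 RPKM, and these 2 were called lower in the post-meiotic region.

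Some of these models are paired on opposite strands. The MFP1-beta models AgR003_g210_t02 and AgR003_g211_t01 overlap by 1387 bp on opposite strands of scaffold AgR003 and had parallel values, with 1551.8 and 1944.8 RPKM in spermatogenesis. The 2 MFP2b models, 2 of the 4 MFP3 models (AgR012_g243_t01 and AgR012_g244_t03) and 2 models named MFP2 (AgR010_g099_t01 and AgR010_g100_t01) are arranged in the same way. In all 19 pairs of overlapping members, made up of 36 genes, had the same descriptive annotation on opposite strands. Whether such a pair is 1 gene modelled on both strands was not tested, and its counts may be of the same reads.

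Of the 5 cap-only genes named for ZC168.6, a sperm-specific protein gene of Caenorhabditis elegans, 2 were above the MSP fiber proteins. AgR086_g007_t01 was at 1564.7, 6705.8, 8185.7, 87.5 and 537.1 RPKM along the 5 male regions, with 1.6 to 7.9 in the female. AgR086_g006_t03 was at 1268, 4557.3, 5105.3, 49.3 and 328 RPKM in the male. On the RPKM scale both were highest in the post-meiotic region, while after rescaling both were highest in spermatogenesis.

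**Figure D3:**
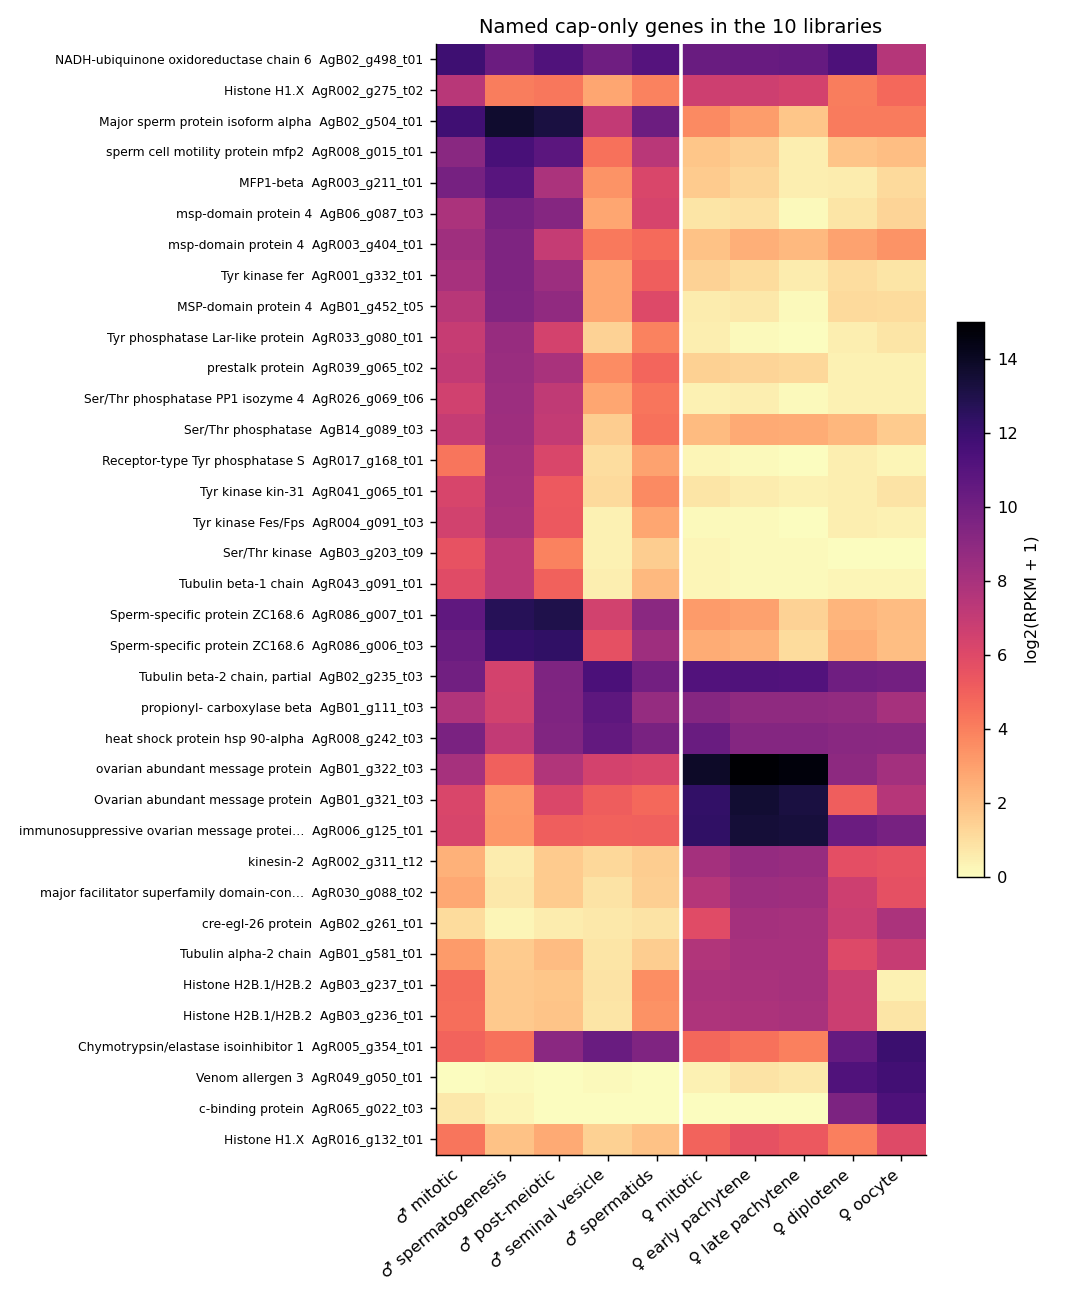
Heatmap of 36 named cap-only genes in the 10 libraries, coloured by log2(RPKM + 1) in rows grouped by the library of the highest value; the white line separates male from female libraries. Genes highest in spermatogenesis fill the upper left block and those highest in pachytene the lower middle, and NADH chain 6, tubulin beta-2 and hsp 90-alpha are dark in nearly all columns.

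Kinases and phosphatases formed the next group. These enzymes add and remove phosphate on proteins, and mature nematode sperm, which lack ribosomes, use them in place of making new protein. Of 325 protein kinase genes 45 were cap-only and 111 SL-only, and of 205 protein phosphatase genes 31 were cap-only and 58 SL-only. Of the 41 cap-only kinases that reached 10 RPKM 33 were highest in spermatogenesis, against 17 of 79 SL-only kinases. For phosphatases the counts were 24 of 28 and 11 of 49.

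The first step depended on the scaling. From the mitotic region to spermatogenesis 1 cap-only kinase was called higher and 1 lower, and 7 phosphatases were called higher and 1 lower, where 2.11% and 9.81% of all genes were called. After rescaling 34 of the 45 kinases and 26 of the 31 phosphatases were called higher and 0 lower, with 14% of all genes called higher. At the step to the post-meiotic region 27 of the 45 kinases and 13 of the 31 phosphatases were called lower, or 35 and 25 after rescaling. Of all genes 7.8% were called lower at that step, or 16% after rescaling. Kinases highest in spermatogenesis kept a median of 11.2% of that level in the post-meiotic region, phosphatases 21.4% and MSP genes 56.7%. Levels of the 3 lists in spermatogenesis overlapped.

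Tyrosine-protein kinase fer (AgR001_g332_t01), a non-receptor tyrosine kinase, was at 258.5 RPKM in the mitotic region, 710.9 in spermatogenesis, 336 in the post-meiotic region, 5.8 in the seminal vesicle and 32.7 in spermatids, and at 0.5 to 1.6 in the female. Tyrosine-protein kinase kin-31 (AgR041_g065_t01) went from 75.8 to 263.1 and 36.7 RPKM over the first 3 male regions, and Tyrosine-protein kinase Fes/Fps (AgR004_g091_t03) from 87.5 to 240.5 and 38.5. All 3 belong to the Fes and Fer family and were at 2 RPKM or less in every female library.

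Receptor-type tyrosine-protein phosphatase S (AgR017_g168_t01) was at 18.7, 271.3, 71.7, 1.0 and 6.4 RPKM along the male regions and at 0.4 or less in the female. Its step from the mitotic region to spermatogenesis was 3.79 on the log2 scale, and it was called higher. Serine/threonine-protein phosphatase PP1 isozyme 4 (AgR026_g069_t06) was at 90.2, 332.6, 138.3, 6 and 19.1 RPKM. PP1 is a catalytic subunit shared by many phosphatase complexes. A phosphatase of another profile was Tyrosine-protein phosphatase non-receptor type 11 (AgR046_g034_t03), at 25.9 RPKM in the male mitotic region, 1.3 in spermatogenesis and 25.4 in the female mitotic region. It was called lower in spermatogenesis, a call that was lost after rescaling.

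Single enzymes were among the members with the sperm profile, although the lists nearest to them, mitochondrial energy (3 of 77 genes cap-only) and proteasome and ubiquitin (8 of 192), held smaller shares than the whole set. Glutamate dehydrogenase (AgB10_g192_t01), which converts glutamate to 2-oxoglutarate, was at 38.9, 598.3, 436.5, 2.9 and 19.3 RPKM in the male and at 1.1 or less in the female. It showed the largest called rise to spermatogenesis among annotated members, 3.91 on the log2 scale. Pyruvate dehydrogenase E1 component subunit beta (AgB02_g353_t02) went from 166.4 to 1061.7 and 507.4 RPKM over the first 3 male regions, and phosphoenolpyruvate carboxykinase (AgR007_g086_t03) from 137.5 to 502.4 and 50.8. The latter 2 were chosen after their values were seen.

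A ClpX-like subunit (AgB03_g243_t01), in other organisms the unfolding subunit of a mitochondrial protease, was at 328.6, 1042.4 and 113.8 RPKM over the same regions. 26S protease regulatory subunit 4 (AgR003_g199_t01), an ATPase of the proteasome, was at 45.2, 200.2 and 70.4 RPKM and at 0.1 or less in the female. Tubulin beta-1 chain (AgR043_g091_t01) was at 58.6, 149.3 and 30.1 RPKM in these regions and at 0.2 or less in the female. Inner centromere protein (AgR002_g288_t02), a chromosome passenger protein, went from 17.8 to 95.3 and 5.5 RPKM and was called lower after spermatogenesis.

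Many genes with the sperm profile have no name. Of the 948 members 344 (36.3%) were uncharacterised, against 22.0% of SL-only genes, and 180 of the 252 that reached 10 RPKM were highest in spermatogenesis. From the mitotic region to spermatogenesis 70 were called higher and 7 lower, or 207 and 0 after rescaling. For all genes the shares were 2.11% and 9.81%, or 14% and 0.294% after rescaling. The hypothetical protein AgB01_g042_t01 (scaffold AgB01, 681620 to 682608, minus strand, 811 nt, 2 exons) was the highest member in spermatogenesis. It was at 6449.9, 28079.5, 23783, 201.1 and 2042.6 RPKM along the male regions and at 4.6 to 51 in the female, above alpha-MSP in each male library.

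A smaller group was ovarian. The eggshell and oocyte list held 10 members, 9 SL-only genes and 7 with both flags of 44 genes. From the male to the female mitotic region 8 of the 10 members were higher in the female and 0 in the male, and 8 were called lower at diplotene, or 7 after rescaling. Of all genes 4.34% were called higher in the female mitotic region, and 5.02% lower at diplotene, or 1.66% after rescaling. Ovarian abundant message protein (AgB01_g322_t03, scaffold AgB01, 4844169 to 4848351, plus strand) was at 15108.9 RPKM in the female mitotic region, 30258.6 in early pachytene, 25947.7 in late pachytene, 491.8 in diplotene and 283.2 in the oocyte, and at 31.6 to 262.7 in the male. It was the highest member in the first 3 female regions.

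Further copies of that family followed. AgB01_g321_t03 was at 4984.8, 12027.7, 9643.1, 32.2 and 177.4 RPKM along the female regions, and AgB24_g040_t05 at 3212, 7400, 6367.6, 17.9 and 76.9. An ovarian message protein named as immunosuppressive (AgR006_g125_t01) was at 5081.8, 11089, 10450.9, 1176.7 and 853.7 RPKM. Copies may share reads, and AgB24_g040_t05 and AgB24_g041_t01 overlap by 1446 bp on opposite strands. Of these genes AgB01_g322_t03 and AgR006_g125_t01 had all female libraries above all male libraries, while AgB01_g321_t03 and AgB24_g040_t05 overlapped with the male at diplotene.

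Further members of the ovarian group were named for a protein that binds the egg coat and for an eggshell protein. Zonadhesin (AgR006_g331_t03), named for a mammalian sperm protein that binds the egg coat, was at 749.4, 794.5, 865.4, 17.7 and 12.5 RPKM in the female and at 5.1 or less in the male. Chondroitin proteoglycan 2 (AgR003_g077_t02), in Caenorhabditis elegans an eggshell protein, was at 706.1, 740.9, 725.8, 129.5 and 110.2 RPKM and at 14.4 or less in the male. Both were called lower from late pachytene to diplotene, and the call of chondroitin proteoglycan 2 was lost after rescaling.

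Histones, which package DNA, were cap-only in 10 of 25 genes, with 4 SL-only. Histone H2B.1/H2B.2 (AgB03_g237_t01) was at 232.6, 244.7, 267.3, 107.3 and 0.3 RPKM along the female regions and at 22.8 or less in the male, and it was called lower in the oocyte than in diplotene. Its overlapping partner on the other strand, AgB03_g236_t01, ended at 0.7 RPKM in the oocyte. Histone H1.X (AgR002_g275_t02), a linker histone, was at 167.2 RPKM in the male mitotic region, 15.9 in spermatogenesis and 98.5 in the female mitotic region. From the male mitotic region to spermatogenesis 5 of the 10 were called lower and 0 higher, and after rescaling no member was called lower at that step. Of all genes 9.81% were called lower there, or 0.294% after rescaling. Replication-dependent histone messages of animals lack a poly(A) tail, and the libraries here were made from ribosome-depleted total RNA.

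Of the 11 tubulin and motor members 2 were called higher and 3 lower in the male than in the female mitotic region. The shares of all genes were 6.63% and 4.34%. Kinesin-2 (AgR002_g311_t12), a microtubule motor, was at 273.9, 407.1, 386.9, 51.8 and 45.9 RPKM in the female and at 4.4 or less in the male. Tubulin alpha-2 chain (AgB01_g581_t01) was at 196.9, 257.1, 255.2, 64.2 and 115.7 RPKM in the female and at 7.8 or less in the male. Both had every female library above every male library, opposite to the tubulin beta-1 chain above.

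Late female steps involved few members. Between the female mitotic region and early pachytene 4 members were called higher (0.277% of all genes called) and 2 lower (0.155% of all genes called). After rescaling the counts were 5 (0.405% of all genes) and 1 (0.0888% of all genes). From early to late pachytene the count was 0 in each direction (0% and 0.0499% of all genes called). From late pachytene to diplotene 19 were called higher (2.25% of all genes called) and 35 lower (5.02% of all genes called). After rescaling 26 were higher (2.74% of members, 3.11% of all genes) and 18 lower (1.9% of members, 1.66% of all genes). From diplotene to the oocyte 17 were called higher (1.11% of all genes called) and 10 lower (0.843% of all genes called). From the female mitotic region to the oocyte 26 were called higher (2.86% of all genes called) and 74 lower (7.81% of members, 11.5% of all genes called). After rescaling 60 were higher (6.33% of members, 5.85% of all genes) and 21 lower (2.22% of members, 2.95% of all genes), near the background. The shares of members called were 1.79% and 1.05% at the step from diplotene to the oocyte and 0.422% and 0.211% at early pachytene, somewhat above the background but resting on few genes. At diplotene they were 2% and 3.69% on the RPKM scale, below it.

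Members called higher at the last 2 female steps included secreted proteins. Venom allergen 3 (AgR049_g050_t01), of a family of secreted proteins found in many parasitic nematodes, was at 0.3, 0.8, 0.6, 2402 and 3459.1 RPKM along the female regions and at 0.1 or less in the male. The adjacent SL-only gene of that name (AgR049_g049_t04) was also high late, at 383.7 RPKM in diplotene and 185.1 in the oocyte. A protein annotated as c-binding protein (AgR065_g022_t03) was listed at 0 in the first 3 female libraries and at 758.2 and 2620.5 RPKM in the last 2. Calreticulin (AgB01_g339_t02), a calcium-binding chaperone of the endoplasmic reticulum, was at 63.5 RPKM in diplotene and 449.6 in the oocyte. The cap-only venom allergen 3 gene and the c-binding protein were called higher at diplotene and calreticulin in the oocyte.

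Some secreted proteins were high at the end of both germlines. Chymotrypsin/elastase isoinhibitor 1 (AgR005_g354_t01), a protease inhibitor, was at 29.1, 20.6, 536.1, 1269.2 and 715.2 RPKM in the male and at 26.6, 20.2, 14.5, 1412.2 and 4114.9 in the female. Its overlapping neighbour AgR005_g353_t02 had the same shape, with 1128.2 RPKM in the seminal vesicle and 1327 in the oocyte. Cecropin-P4 (AgB19_g011_t02), an antimicrobial peptide, was at 128.3 RPKM in the seminal vesicle, 51.9 in spermatids and 66.8 in the oocyte.

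Some members were highest in the seminal vesicle and spermatid libraries. Ancylostoma secreted protein (AgB07_g229_t01) was at 3.4, 1.3, 103.4, 1464.7 and 279.7 RPKM in the male and at 5.5 or less in the female. An abundant larval transcript-2 protein (AgR007_g205_t01) was at 767.7 RPKM in the seminal vesicle and 14.2 to 212.7 in the other male libraries. OV-17 antigen (AgR006_g148_t01) was at 149.5 RPKM in spermatids and at 0.3 or less in the other 9 libraries. The profile was not particular to cap-only genes, as the adjacent SL-only gene of that name (AgR006_g147_t01) was also highest in spermatids, at 240 RPKM. These 2 libraries are those in which the collagen and cuticle list was high, and the part of other tissue in these values was not tested.

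Some of the most abundant members were found in all libraries. Tubulin beta-2 chain (AgB02_g235_t03) was at 1012.6, 84.7, 734.6, 2668.8 and 984.6 RPKM in the male and at 991.8 to 2401.4 in the female. Heat shock protein hsp 90-alpha (AgR008_g242_t03) was at 130.7 RPKM in spermatogenesis and 528.3 to 1492.3 in the other libraries. 60S ribosomal protein L19 (AgR053_g044_t02) was at 39.5 RPKM in spermatogenesis and 85.3 to 250.5 elsewhere. On the RPKM scale each of the 3 was lowest in spermatogenesis, where the median ratio used for rescaling was also lowest. After rescaling this held for tubulin beta-2 and hsp 90-alpha but not for L19, which was lowest in late pachytene.

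NADH-ubiquinone oxidoreductase chain 6 (AgB02_g498_t01) was at 1065.6 to 3792.3 RPKM in the male, and at 1247.2, 1291.3, 1392.8, 2543.7 and 183.2 in the female. This protein is encoded by mitochondrial DNA in animals, and the model is a single exon of 1404 nt with no strand. Whether it carries reads of mitochondrial RNA was not tested. The hypothetical protein AgR047_g055_t01 shared its lowest and, on the RPKM scale, its highest library, from 55.7 RPKM in the oocyte to 7124.9 in the male mitotic region, and was the highest member in that region, in spermatids and in diplotene.

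Retrotransposon-like names were on 10 members of 121 genes. A Pol polyprotein named for the retrotransposable element R2 (AgR022_g007_t01, 1 exon) was at 733.6, 51.2, 56.9, 43.8 and 0.1 RPKM in the female and at 68.7 to 1019.2 in the male. It was called lower at early pachytene and again in the oocyte. Such elements are repeated in genomes, so its reads may come from several copies.

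Between the sexes the mitotic regions already differed. The male mitotic region was called higher than the female one for 347 members (36.6%, with 6.63% of all genes called) and lower for 40 (4.22%, with 4.34% of all genes called). SL-only genes were called higher in 106 and lower in 267 cases. After rescaling 293 members were higher (5.29% of all genes) and 28 lower (2.32% of all genes). Of the 347 members 294 were highest in spermatogenesis. MFP2b showed the largest difference among members with a descriptive name, from 1.1 RPKM in the female mitotic region to 941.4 in the male one, a log2 difference of 8.81. The MSP list as a whole was at 16710 RPKM in the male mitotic library, and whether this library held later germ cells was not tested.

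Between the mature stages the counts were smaller. Spermatids were called higher than the oocyte for 120 members (12.7%, with 3.35% of all genes called) and lower for 53 (5.59%, with 5.47% of all genes called). For SL-only genes the calls were 121 higher and 421 lower. The 120 became 199 with no minimum level (5.37% of all genes) and 198 with all transcripts summed (5.71% of all genes). Over all 10 libraries a gene was called male or female when its lowest library of that sex was at 10 RPKM or more and at least 2-fold above the highest of the other, on RPKM + 1. This held in the male for 21 members (2.22%, with 0.155% of all genes called), which is 21 of the 28 genes called in the whole table, and in the female for 14 (1.48%, with 1% of all genes called). After rescaling the male count was 33, and the share of all genes was not computed for this setting. With the seminal vesicle library left out, 102 members and 172 of all genes (0.954%) were called male on the RPKM scale. Leaving out a male library can only keep or raise this count, and no other library was left out.

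By annotation, the share of cap-only genes varied between lists around the 6.83% of the retained set. It was 66.7% for sperm motility and sperm specific genes, 56.2% for MSP, 40% for histones, 22.7% for eggshell and oocyte, 15.1% for protein phosphatases and 13.8% for protein kinases. It was 0.78% for 129 ribosomal protein genes, 2.43% for 247 genes of RNA processing and translation and 3.90% for 77 genes of mitochondrial energy. None of 34 transthyretin-like genes and none of 24 C-type lectin genes was cap-only, while 23 and 11 of them were SL-only. Both of these last families were abundant in the late female libraries, with summed levels over the whole table of 45760 RPKM for 30 C-type lectins and 21550 for 37 transthyretin-like genes in the oocyte.

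**Figure D4:**
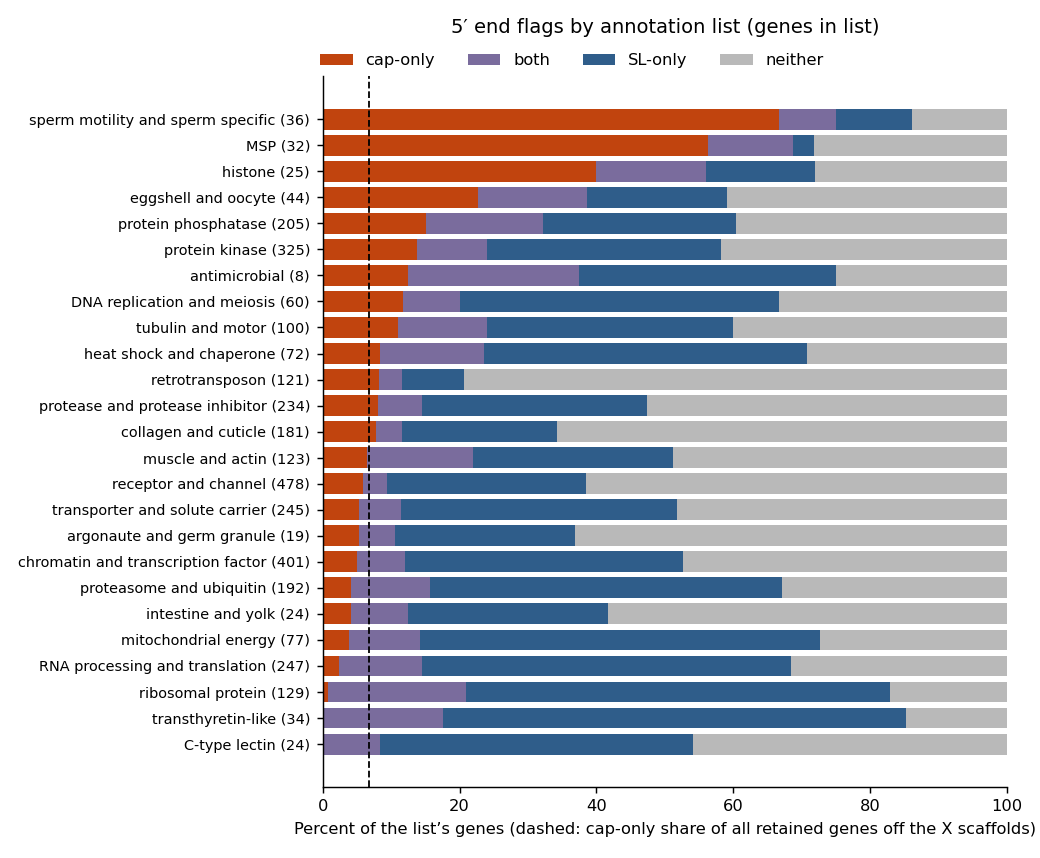
Percent of the genes of each annotation list that were cap-only, had both flags, were SL-only or had neither; list sizes are in brackets and the dashed line marks 6.83%, the cap-only share of all retained genes off the X scaffolds. The MSP, sperm motility and histone lists stand at 40% or more.

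The other lists lay nearer to the whole set. Shares above it were 12.5% for antimicrobial genes, 11.7% for DNA replication and meiosis, 11% for tubulin and motors, 8.33% for heat shock, 8.26% for retrotransposons, 8.12% for proteases and 7.73% for collagen and cuticle. In counts collagen and cuticle had 14 of 181 genes, muscle and actin 8 of 123, receptors and channels 28 of 478, chromatin and transcription factors 20 of 401, transporters 13 of 245, proteases and inhibitors 19 of 234 and tubulin and motors 11 of 100. Proteasome and ubiquitin had 8 of 192, heat shock and chaperones 6 of 72, DNA replication and meiosis 7 of 60, intestine and yolk 1 of 24, argonaute and germ granule 1 of 19 and antimicrobial 1 of 8. The highest collagen and cuticle members were Cuticlin-1 models, named for a cuticle protein, AgR038_g036_t01 and AgR038_g037_t02, at 146.6 and 95.2 RPKM in spermatogenesis and at 0.8 or less in the female.

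Genes of the same name allowed a closer comparison. There were 87 annotations that exactly 1 cap-only and 1 SL-only gene shared, a set chosen after the data were seen. In spermatogenesis the cap-only gene was higher in 57 pairs, the SL-only gene in 26, and 4 were tied. A 4-fold difference on RPKM + 1 was found in 30 pairs with the cap-only gene higher and in 5 with the SL-only gene higher. In 19 pairs the genes were next to each other on a scaffold and may be pieces of 1 gene, which was not tested. Among the other 68 the 4-fold counts were 28 and 5.

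Several pairs divided the sexes. Glutamate dehydrogenase was at 598.3 RPKM in spermatogenesis from the cap-only gene and at 1.6 from the SL-only gene AgR030_g103_t02, which was highest in late pachytene at 22.7. Regulator of microtubule dynamics protein 1 was at 423.9 RPKM in spermatogenesis from AgR007_g065_t01, while AgR024_g131_t01, which is SL-only, was at 1.9 there and at 14.5 in early pachytene. Phosphatidylcholine:ceramide cholinephosphotransferase 3, which makes sphingomyelin, was at 115.7 RPKM in spermatogenesis from AgR006_g185_t03 and at 0.4 from the SL-only gene AgB03_g402_t13, which reached 91.9 in early pachytene.

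Solute carrier family 41 member 2, of a family of magnesium transporters, gave a similar picture. Its cap-only gene AgR020_g136_t03 was at 75.5 RPKM in spermatogenesis and at 1.7 or less in the female, and its SL-only gene AgR022_g069_t07 was at 0.2 or less in the male and at 56.8 in early pachytene. Of 36 pairs in which both genes reached 10 RPKM 10 had the cap-only gene highest in a male region and the SL-only gene in a female region, 1 had the reverse, 15 were both male and 10 both female. The reverse in level also occurred, as for transient-receptor-potential-like protein, at 5.7 RPKM in spermatogenesis from the cap-only gene AgB26_g024_t01 and at 54.9 from the SL-only gene AgB03_g273_t04.

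Gene structure differed in the share of single-exon genes. The median marked transcript of members had 2060 nt and 6 exons, against 2395 nt and 7 exons in SL-only genes, and the median gene had 3 transcripts in both. A single exon was found in 68 members (7.17%) and 3.01% of SL-only genes, at 10 to 100 RPKM in 6.86% and 1.16%, and at 100 RPKM or more in 4.35% and 0.875%. At 100 RPKM or more the medians were 1608 nt and 5 exons against 1508 nt and 6 exons, and the median mean intron was 801 bp against 1074 bp. At 10 to 100 RPKM intron means were 953 and 989 bp, so the introns differed mainly in the most abundant genes.

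Members often lay next to each other on the scaffolds. Of the neighbouring genes of members 17.9% were cap-only, against 5.21% of the neighbours of SL-only genes. In 134 runs of 2 to 5 adjacent members there were 303 genes, and 47 runs shared an annotation. This count takes hypothetical protein as an annotation, so it is not a count of gene families. All members of 52 runs were highest in spermatogenesis. Overlapping models add to these counts: 170 members overlapped another cap-only gene, and 57 runs, with 119 members, held no overlap, 20 of them all highest in spermatogenesis. Leaving out neighbours that overlap, 11.9% of the neighbours of members and 5.77% of those of SL-only genes were cap-only. Members spread over 87 scaffolds.

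A run of 4 on scaffold AgR086 held genes of sperm proteins: MSP-domain protein 1 (AgR086_g004_t02 and AgR086_g005_t02, at 254.8 and 290.4 RPKM in spermatogenesis) and the 2 ZC168.6 genes described above, between 34979 and 61902. The model AgR086_g004_t02 spans the other 3. The gene before the run, AgR086_g003, is also named MSP-domain protein 1, carried both flags and was at 469.7 RPKM. Another run on scaffold AgR003, from 6511348 to 6535219, held 2 tyrosine phosphatase models at 67.1 and 64.5 RPKM, a ClpX-like subunit at 375 and MSP-domain protein 4 at 748.3. The longest run, AgR006_g224 to AgR006_g228, held 4 models named Myosin-4 and a doublesex-like factor, none above 10 RPKM, and the Myosin-4 models overlap.

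The distance to the gene upstream on the same strand, where no gene overlapped, had a median of 1990 bp for 240 members and 3215 bp for 1478 SL-only genes, and it was under 1000 bp in 27.5% and 19.6%. In nematodes trans-splicing also separates the messages of closely spaced genes transcribed together. In the opposite arrangement the medians were 4622 and 4767 bp.

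The flag and the level did not always lie on the same isoform. Members had 3584 transcripts, of which 2777 carried the Telo flag, and the marked transcript carried it in 862 members (90.9%). In 337 members with both flagged and unflagged transcripts the highest value was on a flagged one in 194, on an unflagged one in 136 and tied in 7. Where a member had at least 2 transcripts (710 genes), the one marked as best expressed held the gene's highest value in 311. Isoforms share reads, and these values are the authors' estimates.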

How the data were processed

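Values were RPKM per transcript as the authors deposited them in a table of 10 germline libraries. The column headers name no unit, and RPKM was taken from the size of the values. TopHat2 and Cufflinks appear, without a role, in the submitters' processing notes. The genome build, and whether reads or fragments were counted, were not stated there. Genes were classed by the table's Telo and SL flags and described by the transcript marked best expressed. With 1 library per region no test was run. A call needed a 4-fold difference on RPKM + 1 (pseudocount 1) and a higher value of 10 RPKM or more. Libraries were rescaled by median ratios as an alternative. Annotation lists are word searches. Named genes are the 3 highest members with a descriptive annotation in each region, the 3 largest differences each way per comparison, the 5 largest gaps per sex, up to 4 per list, the 5 highest single-exon members and the highest member of any kind per region. Others were chosen after their values were seen, among them the genes named in pairs and runs, pyruvate dehydrogenase and phosphoenolpyruvate carboxykinase. The members and the lists were chosen with earlier results of these data known. The code was checked on simulated data. Python 3.11.15, pandas 2.3.3, NumPy 2.4.6, SciPy 1.17.1 and matplotlib 3.10.9 were used.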

Additional observations from a re-analysis of the deposited data

How the results depend on the processing

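No paired analysis was possible because each region was 1 library and no replicate numbers were shared. Of 284 values under alternative settings 209 stayed within 1.5 times of the value reported, or for shares within their 95% exact binomial interval, which covers counting error only, and 75 moved. None of those under a pseudocount of 0.1 or with the highest transcript of each gene moved. With libraries rescaled by median ratios the members called are given with the share of all genes called in brackets. They were 454 higher (14%) and 0 lower (0.294%) in spermatogenesis against the male mitotic region, and 18 higher (3.26%) and 407 lower (16%) in the post-meiotic region. In the seminal vesicle 23 were higher (2.54%), and in spermatids against the mitotic region 24 higher (3.76%) and 148 lower (3.49%). Calls were 1 lower in early pachytene (0.0888%) and 18 lower in diplotene (1.66%). In the oocyte against the female mitotic region 60 were higher (5.85%) and 21 lower (2.95%). Over all libraries 33 were male, with no share of all genes computed. Within lists 16 MSP, 22 sperm motility, 34 kinase and 26 phosphatase members were higher in spermatogenesis, and 13 sperm motility and 25 phosphatase members lower in the post-meiotic region. Member medians became 30.52 RPKM in spermatogenesis and 0.1956 in the female mitotic region, and the share highest in spermatogenesis 76.6%, against 28.72% in SL-only genes. The cause is by construction the scaling.

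Brackets give the share of all genes called. At 2-fold in place of 4-fold the calls were 288 higher (6.34%) and 93 lower (15.3%) in spermatogenesis. In the seminal vesicle 33 were higher (3.44%), and in spermatids against it 32 lower (2.95%). Calls were 20 higher (2.01%) and 21 lower (3.16%) in early pachytene, 1 lower (0.0666%) in late pachytene, and 31 higher (3.58%) and 90 lower (14.2%) in diplotene. The oocyte had 40 higher (3.45%) and 23 lower (3.43%) against diplotene, and 48 higher (4.58%) and 114 lower (19%) against the mitotic region. In the male mitotic region 78 were lower than in the female one (10.4%). For calls, no minimum and a minimum of 1 RPKM are the same setting by construction, although they were counted separately. Both call rules on RPKM + 1 already need a higher value of 1 RPKM or more. With no minimum, and with a minimum of 1 RPKM, calls were 1 lower in late pachytene (0.0721%) and 36 higher in diplotene (3.67%). Against the mitotic region 26 were higher in spermatids (3.57%) and 46 in the oocyte (4.43%). In spermatids 199 were higher than in the oocyte (5.37%), and 62 were male and 24 female. With all transcripts summed they were 392 lower in the seminal vesicle (11.7%) and 212 higher in spermatids against it (6.75%). Calls were 7 higher in early pachytene (0.521%), and 38 higher (3.52%) and 55 lower (7.11%) in diplotene. In the oocyte 49 were higher than in the mitotic region (4.28%), in spermatids 198 higher than in the oocyte (5.71%), and 42 were male. Member medians were then 38.55 RPKM in spermatogenesis and 1.5 in the female mitotic region. The male count was 102 (0.954%) without the seminal vesicle library, a setting chosen with the data in view. For the other counts of male and female genes given here the share of all genes was not computed.

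For the reference medians, genes with both flags had 4.25 RPKM in spermatogenesis and 8.3 in the female mitotic region, and genes with neither flag 0.6 and 0.3. The share of members highest in spermatogenesis was 49.72% from a maximum of 1 RPKM, 47.26% with no minimum and 65.38% without the male mitotic library, where SL-only genes had 11.19%. With X and eliminated genes added the SL-only share was 7.918%. Cap-only genes were 24.1% of flagged genes highest in spermatogenesis at 1 to 10 RPKM, 38.28% at 10 to 100 and 64.71% at 100 or more. Leaving out overlapping neighbours, cap-only genes were 11.91% of the neighbours of members and 5.767% of those of SL-only genes; this and the rescaling of lists were added later. Leaving out the spermatogenesis library gives no such share. With 1 library per region and unknown depth, the error of any level is unknown, and flags of rare messages may be missing.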

Other observations

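Outside the retained genes off the X scaffolds, the 5′ end flags were spread differently. Cap-only genes were 38.7% of the 344 flagged genes listed as eliminated and 9.17% of the 1571 flagged genes on X scaffolds, against 13.4% of the 7063 flagged genes in the set described above. Of 120 eliminated cap-only genes that reached 10 RPKM 97 (80.8%) were highest in spermatogenesis, against 23 of 98 eliminated SL-only genes (23.5%). On X scaffolds 17 of 96 cap-only genes (17.7%) were highest there and 2.00% of SL-only genes. An eliminated example is major sperm protein isoform beta (AgE02_g037_t01), with a maximum of 14397.9 RPKM.

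Scaffold AgE51, listed as eliminated, held 7 genes, all cap-only, and 4 of them are named for proteins that mitochondrial DNA encodes in animals, including cytochrome b. Mitochondrial messages of animals carry no cap, and what the Telo flag stands for on these genes was not tested.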
